A study of Mus musculus with 4 samples.

Results

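The core circadian clock of the mouse heart was read from 10 genes, the activators *Arntl* (also called *Bmal1*), *Clock* and *Npas2*, the repressors *Per1*, *Per2*, *Per3*, *Cry1*, *Cry2* and *Nr1d1*, and the output gene *Dbp*. They were chosen by name, as all probe sets whose only gene symbol in the platform annotation is one of these, which gave 23 of 45037 probe sets and 10 of 18193 genes. RNA came from whole hearts of 10 weeks old mice on a mixed 129/Ola-C57BL/6 background, with 1 Affymetrix mouse expression array for each of 2 Jun f/f and 2 Jun Δmu hearts (Jun delta mu in the sample labels). Jun f/f mice carry floxed alleles of *Jun*, the gene of the AP-1 transcription factor c-Jun, and no Cre. Jun Δmu mice carry the same floxed alleles and Cre recombinase driven by the muscle creatine kinase promoter, so that *Jun* is deleted in striated muscle and kept in the other cells of the heart. None of the animals was operated on or treated. The deposited growth notes describe plated ventricle cells instead, whereas the titles, the source and the methods say heart. The time of day at which each heart was taken is not given in the sources used here, and its part in any difference between hearts was not tested.

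The clock is a feedback loop of transcription that runs with a period of about a day in nearly every cell. Arntl pairs with Clock, or with its relative Npas2, and the pair binds E-box sequences and turns on *Per*, *Cry*, *Nr1d1* and *Dbp*. Per and Cry proteins return to the nucleus and block the pair, and Nr1d1 (also called Rev-erb alpha) represses *Arntl*, *Clock* and *Npas2* through sequences called ROREs, where Ror receptors act in the opposite sense. In the heart of the mouse *Nr1d1* and *Dbp* therefore run nearly opposite in time to *Arntl* and *Npas2*, with the *Per* genes following *Dbp* and *Cry1* later than the others. The cardiac clock is known for timing metabolism and the expression of ion channels over the day.

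Sequences of these kinds were looked for in the DNA near the starts of the genes. RefSeq promoter windows on GRCm38.p6, from 250 bases before to 50 bases after each listed start, were searched on both strands for the E-box CACGTG, for the D-box TTATGTAA that Dbp and its relatives bind, and for AGTAGGTCA, the spelling of the RORE in the *Arntl* window. *Per2* is not listed. In the 30-base stretches that follow, shown because each joins an arm of the loop to a gene measured here, the capitals mark the motif and the strand is that of the gene.
Per1 E-box, chr11:69098771-69098800, plus strand: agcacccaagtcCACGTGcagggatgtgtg
Cry1 E-box, chr10:85185097-85185126, minus strand: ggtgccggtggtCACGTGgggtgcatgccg
Per3 first D-box, chr4:151044852-151044881, minus strand: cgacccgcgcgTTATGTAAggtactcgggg
Per3 second D-box, chr4:151044805-151044834, minus strand: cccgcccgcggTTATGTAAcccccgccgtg
Arntl RORE, chr7:113207529-113207558, plus strand: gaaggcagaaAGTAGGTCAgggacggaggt
Nfil3 RORE, chr13:52981032-52981061, minus strand: cgctcggaacTGACCTACTaacacacatct
Ciart E-box, chr3:95882327-95882356, minus strand: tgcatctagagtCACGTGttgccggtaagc
The E-box of *Per1* lay inside the gene, 166 bases before the start of a downstream transcript, that of *Cry1* 60 bases before its start, and both D-boxes of *Per3* lay upstream, at 205 and 158 bases. The RORE of *Arntl* began 28 bases past the start of its downstream transcript. *Nfil3* and *Ciart* are further clock genes described after the core genes, and the RORE of *Nfil3* reads in the opposite direction. Of 32851 promoter windows of this length, 7.15% hold the E-box, 0.938% the D-box and 0.192% this spelling of the RORE. The windows of *Dbp*, *Nr1d1*, *Cry2*, *Npas2* and *Clock* hold none of these letters, which says nothing of sites elsewhere in those genes. A shorter core of the RORE, AGGTCA, was also searched for and lies in 16.3% of windows. The windows of *Clock*, *Per1* and *Nr1d2* hold this core without the longer spelling. Further matches, such as other E-boxes of *Ciart*, the E-boxes of *Tef* and *Bhlhe41* and the D-box of *Timeless*, are not shown. The match in *Arntl* was given in advance by the choice of letters, and binding at any of these sites was not tested.

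On the arrays, *Jun* was lower in both Jun Δmu hearts, at a log2 signal of 7.02 and 7.14 against 8.30 and 9.0 in the Jun f/f hearts by its brightest probe set. Heart muscle was the main tissue on every array, with the mean signal of 5 ventricular markers between 14.58 and 14.62. The Y-linked genes *Uty*, *Kdm5d* and *Eif2s3y* were at like levels on all arrays. Jun f/f replicate 1 stood apart: 104 probe sets were over 2-fold away from the average of the remaining arrays there, and 24 to 33 on any other array. Jun Δmu replicate 2 held more atrial signal, with a mean of 9.76 over 4 atrial markers against 6.57 to 7.0 elsewhere. Among markers of skeletal muscle, fibroblasts, endothelium, macrophages, blood, fat and liver, *Postn* of fibroblasts was higher and *Alas2* of red cells lower in Jun Δmu hearts past the threshold defined next. Of the 4 fibroblast markers the difference lay above 0 for 2 and below for 2, with *Dcn* at -0.02 and *Pdgfra* at -0.09. The other blood marker measured, *Hba-a1*, was at -0.01. The difference of *Postn* was 1.15. It was 0.73 and still past the threshold when Jun Δmu replicate 2 was left out, and 0.93 but no longer past it when Jun f/f replicate 2 was. The difference of *Alas2* was -0.49, with -0.77 when Jun Δmu replicate 1 was left out, and it did not pass when any of the other arrays was, with -0.22 for Jun Δmu replicate 2.

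No core clock gene passed the threshold of the study between the genotypes. The threshold is a difference above 1.3-fold at an unadjusted p under 0.05, taken here in a limma fit across all probe sets. It was passed by none of the 23 clock probe sets, beside 1.53% of all 45037 probe sets (0.568% higher and 0.959% lower in Jun Δmu), and by none of the 10 genes counted by their brightest probe set, beside 1.45% of all genes (0.665% higher and 0.786% lower). The groups did not overlap in 6 of the 23 probe sets, beside 33.9% of all probe sets. In RNA of whole hearts, fewer cells of a type and less RNA per cell cannot be told apart.

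None of the 3 activators passed the threshold, and *Clock* differed more than *Arntl* and *Npas2*. *Arntl*, the partner without which the loop stops, is on chromosome 7 between 113178471 and 113314126 (GRCm38). By probe set 1425099_a_at its log2 signal was 8.62 and 8.35 on Jun f/f replicates 1 and 2 and 8.51 and 8.45 on the Jun Δmu replicates. Both Jun Δmu hearts thus lay between the Jun f/f hearts, and the genotypes differed by -0.01 (standard error 0.12, 95% interval -0.30 to 0.29). Its dimmer probe set differed by -0.15.

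*Clock*, the partner of Arntl in most tissues, lies on chromosome 5 from 76209868 to 76305603. Its signal was 9.60 and 9.18 in the Jun f/f hearts and 9.26 and 9.11 in the Jun Δmu hearts. Jun f/f replicate 1 was above the other 3 arrays, which lay within 0.15 of each other. The difference of -0.21 (standard error 0.16, 95% interval -0.60 to 0.19) was the largest of the 10 genes, and it was 0.00 without Jun f/f replicate 1. Without Jun f/f replicate 2 it was -0.41 and past the threshold. The other 3 probe sets of *Clock* differed by -0.08, -0.07 and -0.13.

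*Npas2*, the relative of Clock on chromosome 1 from 39193702 to 39363240, was at 5.68 and 5.77 against 5.83 and 5.66. The groups overlapped, with a difference of 0.02 (standard error 0.10). Its other probe set was at 5.04 and 5.22 in Jun f/f and 4.79 and 4.98 in Jun Δmu hearts. There the groups did not overlap and the difference was -0.25 (95% interval -0.54 to 0.04), a signal below the median of all probe sets.

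Among the *Per* and *Cry* genes, by their brightest probe sets, *Per1* varied most, and it did so within the Jun f/f group. *Per1*, which also responds to hormones and acute signals, lies on chromosome 11 from 69095108 to 69109965 and was at 7.87 and 7.16 in the Jun f/f hearts and 7.48 and 7.57 in the Jun Δmu hearts. The Jun f/f hearts were 1.63-fold apart and the Jun Δmu hearts stood between them, so the genotypes differed by 0.01 (standard error 0.23, 95% interval -0.57 to 0.59). The range of *Per1* over the arrays was wider than that of 97.4% of all probe sets. Leaving out Jun f/f replicate 1 gave 0.36 and leaving out replicate 2 gave -0.34, neither of them past 1.3-fold.

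*Per2*, the *Per* gene whose loss most disturbs daily rhythm, lies on chromosome 1 from 91415977 to 91459351. By its brightest probe set it was at 6.07 and 5.99 in Jun f/f and at 5.90 and 5.95 in Jun Δmu hearts. It was the 1 member gene of 10 whose groups did not overlap, beside 33.7% of all genes (15.9% with the lower level in Jun Δmu), and it differed by -0.11 (standard error 0.09). A dimmer probe set of *Per2* went the other way without overlap, at 5.01 and 4.90 against 5.08 and 5.35, a difference of 0.26 that passed the threshold only without Jun Δmu replicate 1, at 0.39. The third differed by 0.02, so that the probe sets of this gene disagree in direction.

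*Per3*, an accessory *Per* gene with the D-boxes shown above, lies on chromosome 4 from 150997018 to 151044707 and has 6 probe sets. The brightest was at 6.14 and 6.23 in Jun f/f and 5.87 and 6.22 in Jun Δmu hearts, so that Jun Δmu replicate 1 alone was low. The difference was -0.14 (standard error 0.14), and 0.03 without that array. The other 5, all below the median signal of the arrays, differed by -0.23 to 0.27. Of these, probe set 1441445_at spread most, at 3.88 and 4.72 against 4.61 and 4.54, with Jun f/f replicate 1 far below the rest, and it passed the threshold only without Jun f/f replicate 2, at 0.69.

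*Cry1*, the strongest repressor of the loop, lies on chromosome 10 from 85131700 to 85185054 and was at 7.14 and 6.88 in Jun f/f and 6.92 and 6.90 in Jun Δmu hearts. Jun f/f replicate 1 was again the highest array, while the other 3 lay within 0.05 of each other. The genotypes differed by -0.10 (standard error 0.12, 95% interval -0.39 to 0.20). *Cry2*, its paralog on chromosome 2 from 92403646 to 92434085, was the steadiest member, at 6.90 on both Jun f/f arrays and 6.89 and 6.98 on the Jun Δmu arrays. Its range was wider than that of only 7.6% of probe sets, and its difference was 0.03 (standard error 0.09, 95% interval -0.19 to 0.26).

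*Nr1d1*, the nuclear receptor that represses *Arntl*, had the widest range of all members by their brightest probe sets. The gene lies on chromosome 11 from 98767932 to 98775377, and its signal was 7.71 and 8.47 in the Jun f/f hearts and 8.17 and 8.09 in the Jun Δmu hearts. The Jun f/f hearts were 1.69-fold apart, a gap larger than that of 99.3% of genes between the same arrays, and both Jun Δmu hearts fell inside it. The genotypes differed by 0.04 (standard error 0.25, 95% interval -0.57 to 0.65). Which Jun f/f heart is kept sets the direction, with -0.34 without replicate 1, short of 1.3-fold, and 0.42 without replicate 2, past the threshold.

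*Dbp*, a transcription factor that carries the rhythm to metabolic genes, lies on chromosome 7 from 45705100 to 45710203. Its brightest probe set was at 7.72 and 7.94 in Jun f/f and 8.02 and 7.79 in Jun Δmu hearts, and its other at 7.13 and 7.62 against 7.46 and 7.28. Jun f/f replicate 1 was lowest and Jun Δmu replicate 2 next lowest on both probe sets. The differences were 0.08 (standard error 0.13, 95% interval -0.24 to 0.40) and -0.01 (standard error 0.18), with overlapping groups in both cases.

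Over the 10 genes the differences ran from -0.21 to 0.08 with a median of 0.00, against 0.01 over all genes. Of the members 5 lay above 0 and 5 below. The 95% interval included 0 in each of the 23 probe sets, with an adjusted p of 0.896 or more (limma, Benjamini-Hochberg over all probe sets). In this fit of single probe sets nothing on the array had an adjusted p under 0.05 with limma, while 5.16% of probe sets had an unadjusted p under 0.05, and none had with the methods' t-test, where 2394 had an unadjusted p under 0.05. With 2 arrays per genotype, a p that misses the threshold does not show equal levels. By the brightest probe set, the 95% interval lay wholly within 1.3-fold for 4 members, *Arntl*, *Npas2*, *Per2* and *Cry2*, beside 57.3% of all genes. It reached past 1.3-fold for a dimmer probe set of *Arntl* (-0.44 to 0.13), of *Npas2* (-0.54 to 0.04) and of *Per2* (-0.05 to 0.56). For *Per1* the ratio of Jun Δmu to Jun f/f could lie between 0.67 and 1.5, and for *Nr1d1* between 0.67 and 1.57.

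The gap between hearts of the same genotype was set beside the difference between genotypes for each member. The Jun f/f hearts differed from each other by more than the genotypes did for 7 of the 10 genes, a share near the 65.7% found over all genes. The Jun f/f hearts were more than 1.3-fold apart for *Clock*, *Per1* and *Nr1d1*, 3 of 10 members beside 9.4% of all genes. The Jun Δmu hearts were that far apart for none of them, beside 2.78% of all genes. Their median gap over the members was 0.09, the same as over all genes, while that of the Jun f/f hearts was 0.24 against 0.13.

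The phase relation of the loop was read on each array from the deviation of each gene from its own mean over the 4 arrays, since the levels of different probe sets cannot be compared. On Jun f/f replicate 1 the activators *Arntl* and *Clock* were up by 0.14 and 0.31, while *Nr1d1* was at -0.40 and *Dbp* at -0.15. On Jun f/f replicate 2 the signs were turned, with *Arntl* at -0.13, *Clock* at -0.11, *Nr1d1* at 0.36 and *Dbp* at 0.07. Within the Jun f/f hearts, *Arntl* and *Clock* thus lay on the opposite side from *Nr1d1* and *Dbp* by their brightest probe sets. The dimmer probe set of *Arntl* and 1 of *Clock* did not, with replicate 1 minus replicate 2 at -0.08 and -0.02. The other dimmer probe sets of *Clock* were at 0.19 and 0.39.

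By their brightest probe sets the *Per* genes and the other activator did not follow that split. *Per1* went with *Arntl*, at 0.35 and -0.36 on the Jun f/f arrays, and so did *Cry1*, at 0.18 and -0.08. *Npas2* did not, at -0.05 and 0.03. *Per2* was at 0.09 and 0.01, *Per3* at 0.02 and 0.12, and *Cry2* at -0.02 on both, so by their brightest probe sets these 3 repressors moved little between the Jun f/f hearts. Dimmer probe sets of *Per3* and a dimmer one of *Per2* were lower on Jun f/f replicate 1 than on replicate 2, as *Nr1d1* and *Dbp* were. Replicate 1 minus replicate 2 was -0.84 and -0.42 for *Per3* and -0.27 for *Per2*. The remaining dimmer probe set of *Per2* went the other way, at 0.11. In the Jun Δmu hearts *Arntl* was at 0.03 and -0.03 and *Nr1d1* at 0.06 and -0.02, on the same side of their means, and *Dbp* was at 0.15 and -0.07. The largest deviation there was that of *Per3*, at -0.24 on replicate 1 and 0.10 on replicate 2.

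The distance between *Arntl* and *Nr1d1*, as the deviation of the first minus that of the second, was 0.53 and -0.49 on the Jun f/f arrays and -0.03 and -0.02 on the Jun Δmu arrays. The 2 Jun Δmu hearts were close to each other on this scale and between the Jun f/f hearts. For *Arntl* minus *Dbp* the values were 0.29 and -0.20 in Jun f/f and -0.12 and 0.04 in Jun Δmu hearts. The mean of *Arntl* and *Npas2* minus that of the *Per* genes, *Nr1d1* and *Dbp* was 0.06 and -0.09 against 0.09 and -0.06. On that last scale the Jun Δmu hearts were not close to each other. The mean deviation of the 3 activators minus that of the 6 repressors was 0.09 and -0.07 in Jun f/f and 0.09 and -0.11 in Jun Δmu hearts. The group means were 0.01 ± 0.12 (SD, n = 2) and -0.01 ± 0.15 (SD, n = 2), and their difference of -0.02 was smaller than either spread. Jun f/f replicate 1 was the highest or lowest array for 7 of the 10 members, beside 65% of all genes. It was highest for 5, beside 30.4% of all genes, and lowest for 2, beside 34.6%. The array stood apart over the whole genome, and whether its clock genes differ for a reason of their own was not tested.

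None of 17 further clock genes was past the threshold when counted by the brightest probe set, beside 1.45% of all genes. Their median difference was 0.04, with 10 above 0 and 7 below. *Arntl2*, a paralog of *Arntl*, held the 1 probe set of 46 that passed, beside the 1.53% of all probe sets. Its dimmer probe set 1429688_at was at 4.17 and 4.16 in Jun f/f and 3.66 and 3.47 in the Jun Δmu hearts. It differed by -0.60 (standard error 0.10, adjusted p = 0.896 with limma), and by -0.50 to -0.69 with an array left out. Its signal was low, with a mean above that of only 20.1% of probe sets. The brighter probe set of *Arntl2* was at 5.68 and 5.82 against 5.76 and 5.88, a difference of 0.07. The study lists *Arntl2* among genes picked from these same arrays, so its lower signal is not independent evidence of its direction.

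*Rorb*, a Ror receptor best known from nerve cells and the retina, was lower on each Jun Δmu array by all its probe sets. Among all probe sets, 33.9% had groups that did not overlap, in either direction. Probe set 1455799_at differed by -0.33, also short of 1.3-fold, and omitting any single array kept it between -0.29 and -0.37. The dimmest, 1439862_at, differed by -0.11, with -0.07 to -0.15 on such omission. All had a signal below the median of all probe sets. The brightest was at 5.14 and 4.92 against 4.75 and 4.66. Its difference of -0.32 fell short of 1.3-fold, and it passed at -0.43 without Jun f/f replicate 2 but was at -0.21 when replicate 1 was left out. *Fbxl21*, a ubiquitin ligase subunit that acts on Cry proteins, differed by 0.31 and passed at 0.51 without Jun f/f replicate 1, but leaving out Jun f/f replicate 2 gave 0.11, and leaving out Jun Δmu replicate 1 gave 0.15. *Bhlhe40*, a repressor that competes for E-boxes, was at 8.47 and 8.87 against 8.80 and 8.94, a difference of 0.20. That was 0.00 when Jun f/f replicate 1 was left out, and 0.40 and past the threshold when replicate 2 was. *Nr1d2*, the paralog of *Nr1d1*, was steady at 11.09 and 11.11 against 11.11 and 10.99.

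Other targets and regulators of the loop did not move alike between the Jun f/f hearts. *Ciart*, a repressor with the E-box shown above, was at 5.86 and 6.21 in Jun f/f and 6.36 and 6.10 in Jun Δmu hearts. Its 4 arrays fell in the same order as those of the brightest *Dbp* probe set, though not of the other. *Ciart* differed by 0.20 between genotypes, with overlapping groups. *Nfil3*, which competes with Dbp for D-boxes and carries a RORE as *Arntl* does, was at 7.84 and 7.68 against 7.68 and 7.55 and differed by -0.15. *Tef* and *Hlf*, relatives of *Dbp* that bind the same D-boxes, differed by -0.05 and 0.03, and *Bhlhe41*, the paralog of *Bhlhe40*, by -0.08. By the brightest probe set, *Tef* was level between the Jun f/f hearts, at 9.31 and 9.32. *Hlf* went the opposite way to *Dbp* there, at 7.45 and 7.28, and was at 7.60 and 7.18 in the Jun Δmu hearts. *Usp2*, a deubiquitinase that follows the clock in many tissues, was at 10.20 and 10.56 against 10.49 and 10.47. It was lowest on Jun f/f replicate 1, as *Nr1d1* and *Dbp* were. That array was lowest for 6 of 17 further clock genes, beside 34.6% of all genes.

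*Per1* also answers to glucocorticoids and to acute signals, so genes of those responses are given beside it. *Fkbp5*, which glucocorticoids induce, was the 1 of 8 such genes that passed the threshold, beside 1.45% of all genes (0.665% higher). Its signal was 8.77 and 8.82 in Jun f/f and 9.25 and 9.12 in Jun Δmu hearts. It differed by 0.39. Leaving out Jun f/f replicate 1 gave 0.37, and leaving out Jun Δmu replicate 1 gave 0.32, both short of 1.3-fold. The mean signal of the 8 genes was 10.03 and 10.07 in Jun f/f and 10.19 and 10.16 in Jun Δmu hearts. Of their differences 5 lay above 0 and 3 below, with a median of 0.07. They ran from -0.34 for *Errfi1* to 0.94 for *Ddit4*, whose groups overlapped. *Ddit4* was at 8.94 on Jun f/f replicate 1 and at 10.34 to 10.86 on the other arrays. It thus weighed most in the difference of the mean over the 8 genes. None of 8 immediate early genes passed, beside the same 1.45% of all genes. *Fos* was at 6.55 and 6.01 in Jun f/f and 6.06 and 5.97 in Jun Δmu hearts, highest on the array where *Per1* was highest, whereas *Egr1* was lowest on that array, at 7.01 against 7.05 to 7.61. The part of either response in the spread of *Per1* was not tested.

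Outside these lists, the 5 genes of 18115 whose deviations over the arrays lay nearest to those of *Dbp* were *Wfdc21*, *5430401H09Rik*, *Apool*, *Mrs2* and *5033406O09Rik*, at Euclidean distances of 0.01 to 0.03 where the deviations of *Dbp* have a size of 0.24. Nearest to *Arntl*, whose deviations have a size of 0.19, were *Ddx10*, *Fra10ac1*, *Niban1*, *Clip4* and *4933412O06Rik*, at 0.01 each. With 4 arrays many genes lie this near, so the likeness is a description of these arrays.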

How the data were processed

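According to the labels and methods, 1 array was run per heart, with 2 hearts of each genotype. The values deposited by the authors are log2 RMA signals, 1 for each probe set and array, and RMA compresses differences at low signal. The submitters' processing notes name RMA and the R package oligo, without versions, and the methods name Affymetrix AGCC software. The table holds 45101 probe sets, with 0 missing values and no detection calls. Here the 64 AFFX controls were left out and 45037 probe sets tested without further normalization. Names came from the platform annotation, which gives 34945 probe sets 1 gene symbol, 932 several and 9160 none; coordinates came from RefSeq on GRCm38.p6, matched by symbol for all 10 members.

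Differences are Jun Δmu minus Jun f/f, estimated by lmFit and eBayes of limma 3.58.1 (R 4.3.3; two-sided, genotype only), with Benjamini-Hochberg adjustment over 45037 probe sets. The methods' threshold, above 1.3-fold with p under 0.05, was applied to this fit. Genes were counted by the probe set with the highest mean. All members, further clock genes past the threshold in any probe set, 8 other clock genes (*Arntl2*, *Nr1d2*, *Tef*, *Hlf*, *Nfil3*, *Ciart*, *Bhlhe40*, *Bhlhe41*), *Jun*, up to 3 genes of each accompanying list, and the 5 genes nearest to *Dbp* and to *Arntl* were named; *Rorb*, *Fbxl21* and *Usp2* were named after their values were seen. Members and lists were chosen with earlier results of these data known. The motif AGTAGGTCA was taken from the *Arntl* window itself. The alternatives were the methods' t-test, the replicate block, a trended robust prior, quantile and median normalization, removal of the dimmest 40% of probe sets, each gene as the median of its probe sets, and the omission of single arrays, in which the spread comes from the genotype that keeps both its arrays. The fit was tested on simulated data. Nothing in the labels says that the hearts came from separate litters, so p-values measure the spread between these samples only.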

Additional observations from a re-analysis of the deposited data

How the results depend on the processing

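The number of arrays limits the precision of every value. The count of core clock genes past the threshold stayed at 0 under each alternative except without Jun f/f replicate 2, where it was 2 (*Clock* and *Nr1d1*), so that over the arrays left out it ran from 0 to 2. The count of further clock genes likewise ran from 0 to 2. The count over all probe sets was 688, and 200 with the methods' t-test, 210 genes when each gene was taken as the median of its probe sets, and 739 to 3452 with an array left out, the highest without Jun f/f replicate 2. With an adjusted p under 0.05 there were 0 probe sets by limma and by the methods' t-test, where 2326 and 2394 had an unadjusted p under 0.05, whereas limma on the median of each gene's probe sets gave 2 genes, neither of them a core clock gene.

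Of 110 member values under an alternative, 92 kept direction and side of the threshold, 16 changed direction and 2 passed it, and none of the 10 genes kept its direction throughout. *Arntl* was at 0.0189 under quantile normalization, and with the median over probe sets *Npas2* was at -0.12 and *Per2* at 0.13. With an array left out, *Arntl* ran from -0.14 to 0.12, *Clock* from -0.41 to 0.0022, *Npas2* from -0.0642 to 0.10, *Per1* from -0.34 to 0.36, *Per3* from -0.32 to 0.0343, *Cry1* from -0.23 to 0.0347, *Cry2* from -0.0125 to 0.0785, *Nr1d1* from -0.34 to 0.42 and *Dbp* from -0.036 to 0.19. The activator minus repressor value ran from -0.12 to 0.08, within the spread of the hearts.

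The labels number the replicates alike in both genotypes, but nothing ties equal numbers together, and the deviations of equal numbers correlated at 0.03 over probe sets. With the replicate block 683 probe sets and 0 core clock genes passed the threshold.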
